A study of Mus musculus with 6 samples.

Results

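The potassium channel genes of the mouse were measured in RNA-seq libraries of uterine cells sorted by GFP into the fractions labelled Axin2+ and Axin2-. Members were chosen by symbol: each row of the count table that starts with Kcn, followed by a letter code and a number, leaving out Kcnj8 and the transcript Kcnq1ot1. Of 94 matching symbols 2 were left out, and the 92 members stood among 26586 rows. By letter code they were 40 voltage-gated pore-forming subunits, 12 voltage-gated auxiliary subunits, 14 inward rectifiers, 14 two-pore channels, and 12 genes of the calcium-activated and Slo family. The auxiliary subunits form no pore of their own, so the list is wider than channels in the strict sense.

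Potassium channels let potassium ions leave the cell, which sets the resting potential and ends electrical excitation. In uterine smooth muscle, calcium-activated and voltage-gated channels damp contraction. In epithelia, channels on the basolateral side recycle the potassium that the sodium pump brings in and keep up the electrical force for chloride secretion.

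Each fraction had 3 libraries, numbered by mouse, from animals of the genotype Axin2rtTA; tetOH2BJGFP. Every animal was ovariectomized when 4 weeks old and received doxycycline after a rest of 2 weeks. The uterus was taken 4 days after that, at an age of 6 weeks. Doxycycline turned on GFP where the Axin2-driven rtTA was active, so the sort reads activity of that driver and not Axin2 protein. The numbering is that of the labels, which also mention pooling of cells, so p-values may measure only the spread between libraries of a pool. Reads assigned to genes came to between 49714402 and 59597315 per library. Levels are given as CPM, read counts scaled to library size with TMM factors, and levels of different genes are compared only as CPM per kilobase of exon.

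Axin2, the gene that drives the reporter, was at 165, 243 and 299 CPM in mice 1, 2 and 3 under the label Axin2+, against 369, 357 and 356 CPM under the label Axin2-. Its log2 fold change was -0.61 ± 0.21 (SE), with an adjusted p of 0.071 in edgeR's quasi-likelihood test, and DESeq2 called it lower (adjusted p = 0.026), so the transcript did not follow the labels. Fractions are therefore named by label throughout, and every direction is that of the libraries labelled Axin2+ over those labelled Axin2-. The labels call all 6 libraries endometrial epithelial. Summed over 12 listed epithelial markers, the level was 3619, 3035 and 2518 CPM in the Axin2+ libraries of mice 1, 2 and 3, and 228, 324 and 324 CPM in the Axin2- libraries. Smooth muscle markers went the other way, with a sum over 10 genes of 286, 345 and 461 CPM in Axin2+ and 6878, 2558 and 5425 CPM in Axin2- libraries. Stromal fibroblast markers summed to between 3154 and 4359 CPM in Axin2+ and between 10026 and 22259 CPM in Axin2- libraries. Macrophage markers, 9 found of 10 listed, summed to 3784, 2019 and 663 CPM in Axin2+ and 221, 47.6 and 302 CPM in Axin2- libraries. None of these markers that were found was at 0 in a whole fraction. All 12 epithelial and all 9 macrophage markers were higher in Axin2+, and all 10 smooth muscle and 9 of 10 stromal markers lower, in edgeR's test at an adjusted p of at most 0.05. Fewer cells of a type and less RNA per cell cannot be told apart in such bulk libraries, and the part of these cell types in the results that follow was not tested.

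Of the 92 members, 62 had enough reads to be tested, 24 had reads but too few, and 6 had none. Among the 62, 10 were higher in Axin2+ at an adjusted p of at most 0.05 in edgeR's quasi-likelihood test, against 14.5% of all 16896 genes tested. Lower in Axin2+ were 16 members, against 12.8% of all genes. As shares of the members tested these are 16.1% higher and 25.8% lower, and 41.9% in either direction against 27.3% of all genes. The share of higher calls was thus near that of all genes, and that of lower calls was above it. The median log2 fold change was -0.83 over the 62 members and -0.01 over all genes tested. Of the 36 members that did not pass, 24 had a negative and 12 a positive fold change. The CPM of the fractions did not overlap for 38 of the 62, against 47.2% of all genes tested, and the 26 that passed were among those 38. Without the Axin2+ library of mouse 2 the lower calls numbered 9 in place of 16, and the share of all genes called in that fit was not computed. For all 26 genes that passed, the direction held in each alternative that kept the gene, and 17 of them passed in every one.

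**Figure D1:**
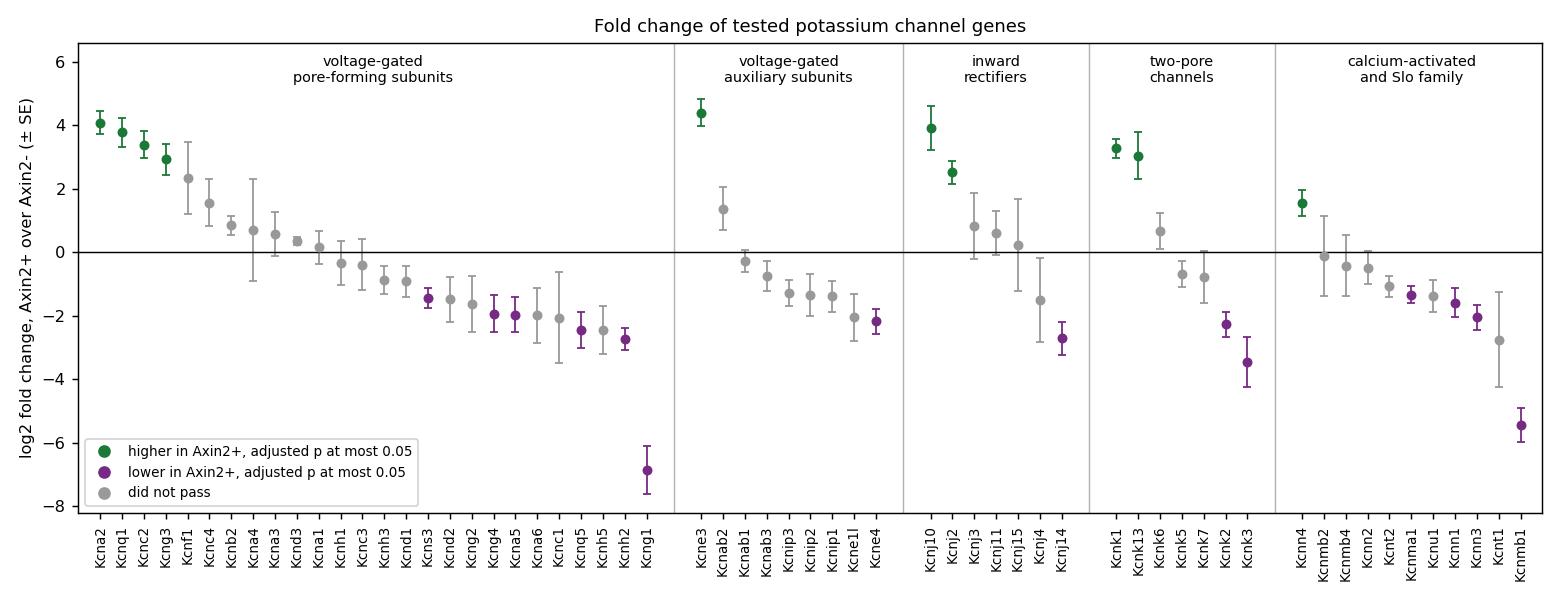
Log2 fold change (Axin2+ over Axin2-, y axis) of 60 tested potassium channel genes, ordered by size within each class along the x axis, with the SE as error bars. Green genes passed the test as higher in Axin2+, purple ones as lower and grey ones did not pass; the values run from 4.39 for Kcne3 to -6.86 for Kcng1.

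The calls split each class. Among all genes tested, 14.5% were higher and 12.8% lower. Voltage-gated pore-forming subunits had 4 higher (14.3%) and 8 lower (28.6%) genes of 28 tested, with a median log2 fold change of -0.90. Their share of higher calls was near that of all genes. The auxiliary subunits had 1 higher and 1 lower of 9 (11.1% each, median -1.3), also near those shares. Inward rectifiers had 2 higher (28.6%) and 1 lower (14.3%) of 7 (median 0.60), and two-pore channels 2 higher and 2 lower of 7 (28.6% each, median -0.70). The calcium-activated and Slo family had 1 higher (9.09%) and 4 lower (36.4%) of 11 (median -1.33), and each of its other 6 tested genes had a negative fold change. Classes with 7 to 11 genes tested are small, so a single call moves their shares much. Some of these counts changed when a single library was left out, which leaves 2 in its fraction and can by itself lose calls. The shares of all genes called in those fits were not computed. The lower pore-forming genes numbered 3 without the Axin2+ library of mouse 2, and 4 without the Axin2- library of mouse 1 or of mouse 3. The auxiliary calls were 2 higher and 3 lower without the Axin2+ library of mouse 3. The higher two-pore genes numbered 1 without the Axin2- library of mouse 1 or 3, and the lower ones 1 without the Axin2- library of mouse 3 or the Axin2+ library of mouse 2. The calcium-activated class had 0 higher genes without the Axin2- or the Axin2+ library of mouse 1 or 2.

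Summed over a class, transcript levels per kilobase differed most between the fractions for the two-pore channels. These came to 61.6, 51.0 and 45.2 CPM per kilobase in the Axin2+ libraries of mice 1, 2 and 3, and to 12.6, 11.8 and 13.9 in the Axin2- libraries. The means were 52.6 ± 8.32 and 12.8 ± 1.04 CPM per kilobase (SD, n = 3 each), a ratio of 4.12. Kcnk1 alone made up 84.5% of this sum in Axin2+ and 36.1% in Axin2-. The median log2 fold change of the class was -0.70, so the ratio describes mainly Kcnk1 and not the class as a whole. The calcium-activated and Slo family stood the other way, at 5.09, 6.22 and 5.79 CPM per kilobase in Axin2+ and 22.7, 13.0 and 16.0 in Axin2- libraries, a ratio of 0.33. For both classes the 2 fractions did not overlap. Auxiliary subunits summed to 11.9 ± 0.52 CPM per kilobase in Axin2+ and 16.4 ± 0.11 in Axin2-, also without overlap. The pore-forming voltage-gated genes summed to nearly the same level, 35.4 ± 1.33 CPM per kilobase in Axin2+ and 33.3 ± 5.80 in Axin2-, and the libraries overlapped. Inward rectifiers were the lowest class in both fractions, at 2.38 ± 0.78 and 1.33 ± 0.29 CPM per kilobase, with the Axin2+ library of mouse 3 below the Axin2- library of the same mouse. No test was run on these sums.

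**Figure D2:**
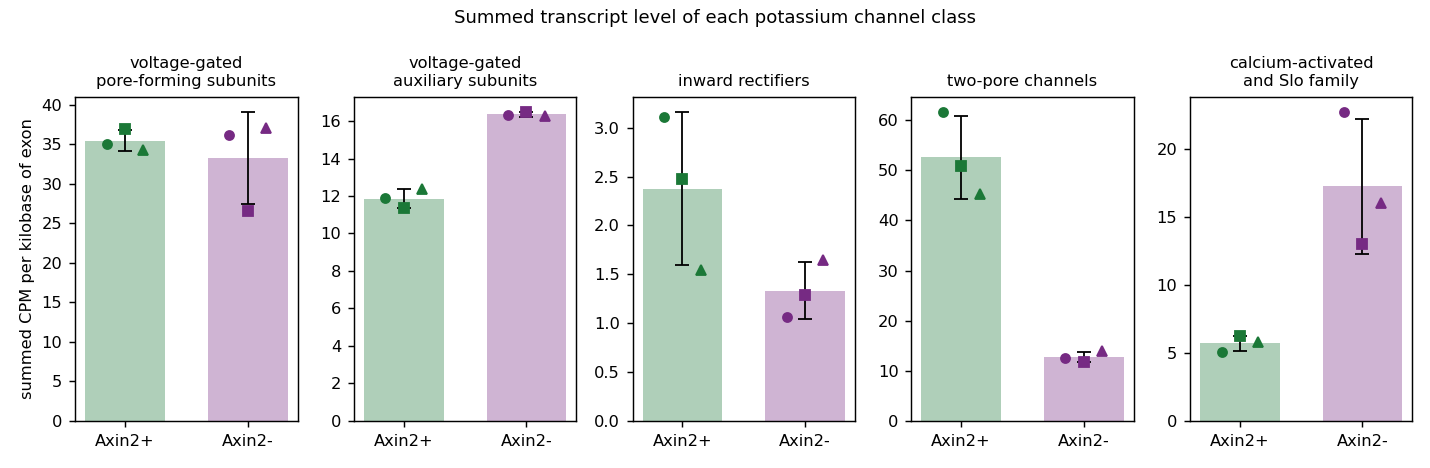
Summed level of each potassium channel class in CPM per kilobase of exon (y axis, a separate linear scale from 0 for each class) in the Axin2+ and Axin2- libraries. Bars are means, error bars the SD over 3 libraries, and circles, squares and triangles are mice 1, 2 and 3. The two-pore sum is 52.6 in Axin2+, of which Kcnk1 is 84.5%, and 12.8 in Axin2-. The calcium-activated sum is 5.70 in Axin2+ and 17.2 in Axin2-.

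A single gene made up much of the Axin2+ total. Kcnk1 averaged 44.5 CPM per kilobase there, which was 41.2% of the summed level of all members, followed by Kcnq1 at 10.4% and Kcnd3 at 4.68%. In the Axin2- libraries no gene stood out to that degree. Kcnh2 led with 8.46% of the sum, then came Kcnip3 with 7.56%, Kcnn3 with 7.0% and Kcnk1 with 5.69%.

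RefSeq promoter windows of 300 bases around the annotated start (GRCm38.p6) were found for 67 members, 92 windows in all, and for 9 of the 10 higher and 11 of the 16 lower genes. The starts are those of RefSeq and can lie apart from the gene limits given here, which come from GENCODE. The Kcnma1 window lies inside those limits, and the Kcnk1 window ends before the gene start given here. Member windows held a median of 9.0 CG dinucleotides, against 7.0 over all 32851 windows of the table, and the higher genes (9.0) and lower genes (11) were close to each other. The GC box, searched as GGGCGG on both strands, was in 45 of the 92 windows (48.9%), against 35.7% of all windows. The forkhead motif TGTTTAC was in 0 of the 92 (3.65% of all windows), and the CArG box, searched by its usual pattern on both strands, also in 0 (1.63% of all windows). A match or its absence describes only the letters of these windows. Windows of 4 members are printed 5′ to 3′ because they belong to genes that passed in every alternative, 2 higher and 2 lower, and differ widely in CG content. Capitals mark CG dinucleotides.
Kcnk1, higher in Axin2+, chr8:125994852-125995151, plus strand: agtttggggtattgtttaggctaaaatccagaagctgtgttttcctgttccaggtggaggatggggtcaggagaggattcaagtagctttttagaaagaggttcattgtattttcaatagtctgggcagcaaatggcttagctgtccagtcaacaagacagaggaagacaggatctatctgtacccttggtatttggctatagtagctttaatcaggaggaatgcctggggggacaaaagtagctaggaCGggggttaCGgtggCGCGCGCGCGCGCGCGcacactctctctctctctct
Kcng3, higher in Axin2+, chr17:83631846-83632145, minus strand: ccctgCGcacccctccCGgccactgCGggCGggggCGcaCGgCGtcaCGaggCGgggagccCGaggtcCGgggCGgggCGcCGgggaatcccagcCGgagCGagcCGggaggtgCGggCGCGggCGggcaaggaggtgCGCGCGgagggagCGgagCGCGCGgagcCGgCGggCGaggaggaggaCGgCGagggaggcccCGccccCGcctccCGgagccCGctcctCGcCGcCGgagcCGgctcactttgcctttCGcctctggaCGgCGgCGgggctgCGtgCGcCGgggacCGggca
Kcnma1, lower in Axin2+, chr14:24004156-24004455, minus strand: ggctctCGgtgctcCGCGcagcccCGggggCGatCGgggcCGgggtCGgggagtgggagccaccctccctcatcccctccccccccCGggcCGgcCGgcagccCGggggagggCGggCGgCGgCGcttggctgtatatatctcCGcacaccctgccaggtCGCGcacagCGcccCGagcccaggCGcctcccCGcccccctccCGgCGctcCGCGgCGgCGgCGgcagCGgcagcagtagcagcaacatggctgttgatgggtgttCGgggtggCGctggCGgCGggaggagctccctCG
Kcnmb1, lower in Axin2+, chr11:33962763-33963062, plus strand: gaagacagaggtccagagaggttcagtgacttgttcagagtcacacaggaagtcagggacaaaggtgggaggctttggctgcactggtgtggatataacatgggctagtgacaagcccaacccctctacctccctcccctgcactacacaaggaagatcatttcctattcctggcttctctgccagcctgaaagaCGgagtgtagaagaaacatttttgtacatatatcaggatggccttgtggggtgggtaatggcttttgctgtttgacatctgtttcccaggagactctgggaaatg
The Kcng3 window held 49 CG dinucleotides and the Kcnma1 window 36, more than 93.8% of all windows for Kcnma1. Kcnk1 had 10 and Kcnmb1 had 1. GGGCGG stood 4 times in the Kcng3 window and 3 times in that of Kcnma1.

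Among the voltage-gated pore-forming genes, the 4 that were higher in Axin2+ are of unlike families. Kcnq1 encodes a slowly activating channel that, with Kcne3, forms the leak-like basolateral channel of secretory epithelia (ENSMUSG00000009545, GRCm38 chromosome 7, 143106362 to 143427042, plus strand). It stood at 41.5, 53.7 and 43.1 CPM in the Axin2+ libraries of mice 1, 2 and 3, against 1.32, 3.90 and 4.90 CPM in the Axin2- libraries. Every Axin2+ library was above every Axin2- library, and the log2 fold change was 3.77 ± 0.46 (SE, edgeR adjusted p = 0.0017). Of its exon bases 2.96% are shared with the antisense Kcnq1ot1, and whether counting used strand is not given in the sources used here. Kcna2, a delayed rectifier of the Shaker family best known from axons (ENSMUSG00000040724, chromosome 3, 107101146 to 107115005, plus strand), had 25.7, 26.6 and 48.3 CPM in Axin2+ against 1.52, 1.77 and 2.66 CPM in Axin2- libraries. Its rise was the largest among the pore-forming genes (log2 4.08 ± 0.36 SE, edgeR adjusted p = 0.000526).

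Kcnc2, a fast delayed rectifier, had 4.04, 6.70 and 7.72 CPM in Axin2+ against 0.564, 0.437 and 0.762 CPM in Axin2- libraries (log2 3.39 ± 0.42 SE, edgeR adjusted p = 0.00164). Kcng3 makes a subunit that is silent alone and modifies other voltage-gated channels. It was at 16.8, 22.5 and 10.4 CPM in Axin2+ against 1.13, 1.89 and 3.50 CPM in Axin2- libraries (log2 2.93 ± 0.48 SE, edgeR adjusted p = 0.00537). For both genes the lowest Axin2+ library was above the highest Axin2- library.

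Silent subunits moved in both directions. Kcng1 (ENSMUSG00000074575, chromosome 2, 168260117 to 168281736, minus strand) had the largest fall of all members. It stood at 0.104, 0.0944 and 0.0186 CPM in Axin2+ libraries, against 13.8, 3.58 and 8.69 CPM in Axin2- libraries. The Axin2+ libraries were all near 0, and the fold change was 116-fold lower (log2 -6.86 ± 0.77 SE, edgeR adjusted p = 0.00117). Kcns3, another silent subunit gene, had 4.24, 2.51 and 2.33 CPM in Axin2+ against 7.87, 8.58 and 8.30 CPM in Axin2- libraries (log2 -1.45 ± 0.31 SE, edgeR adjusted p = 0.014). Kcns3 did not pass without the Axin2+ library of mouse 2 (adjusted p = 0.0611). Kcng4 had 0.431, 0.396 and 0.986 CPM in Axin2+ against 3.46, 2.08 and 1.40 CPM in Axin2- libraries, and was lower by log2 -1.93 ± 0.58 (SE, edgeR adjusted p = 0.046). Its call was lost with mouse as a block (0.0955), with scaling by library size alone (0.0627) and in each fit that left out 1 library, except the one without the Axin2+ library of mouse 3, with adjusted p-values from 0.0561 to 0.158.

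Kcnh2, the ERG channel that repolarizes heart and smooth muscle (ENSMUSG00000038319, chromosome 5, 24319589 to 24351604, minus strand), had 3.90, 5.68 and 5.34 CPM in Axin2+ against 39.7, 18.8 and 41.0 CPM in Axin2- libraries. No library crossed over, and the log2 fold change was -2.74 ± 0.34 (SE, edgeR adjusted p = 0.00164). Kcnq5, an M-type channel gene whose product holds smooth muscle and neurons near rest, was also lower, in contrast to Kcnq1 of the same family. It had 0.569, 0.548 and 0.837 CPM in Axin2+ against 3.79, 1.5 and 5.42 CPM in Axin2- libraries (log2 -2.45 ± 0.55 SE, edgeR adjusted p = 0.0175). The Kcnq5 call was lost without the Axin2- library of mouse 1 (0.053) or of mouse 3 (0.0611) and without the Axin2+ library of mouse 2 (0.069). Kcna5, a delayed rectifier of arterial muscle, had 0.397, 0.302 and 0.837 CPM in Axin2+ against 1.98, 1.66 and 2.39 CPM in Axin2- libraries (log2 -1.97 ± 0.54 SE, edgeR adjusted p = 0.0343). It did not pass without any 1 library other than the Axin2+ library of mouse 3 (0.0553 to 0.109).

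**Figure D3:**
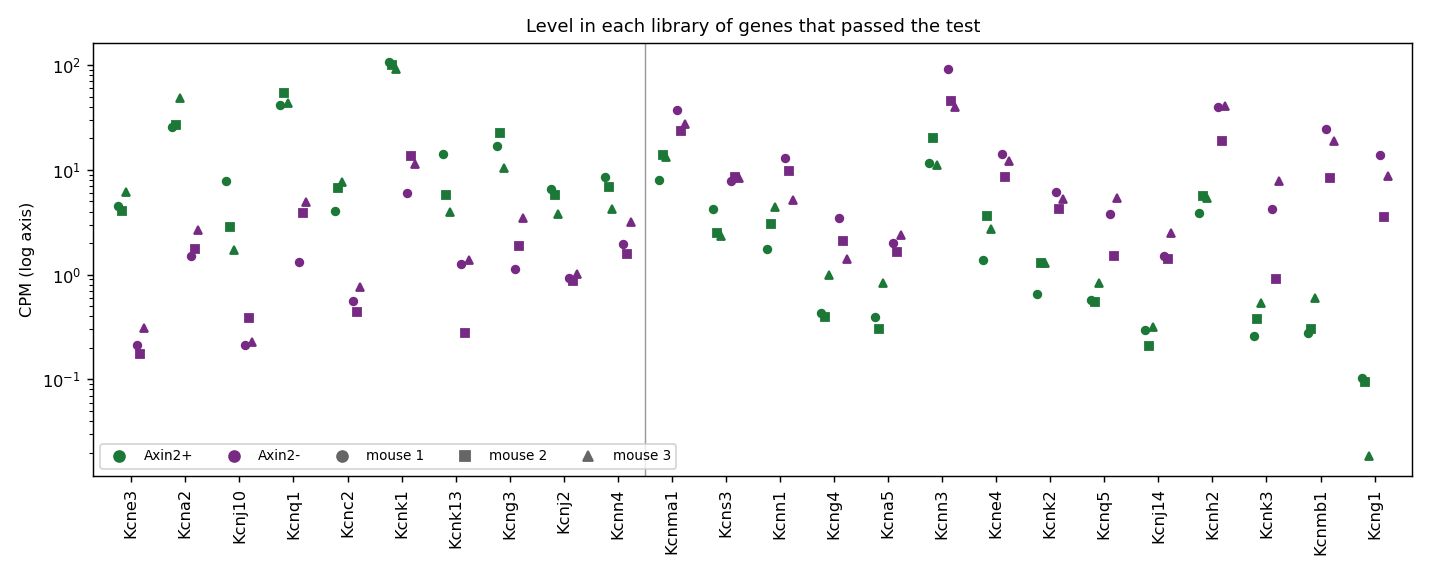
Level in CPM (y axis, log scale) of 24 genes that passed the test, in each Axin2+ (green) and Axin2- (purple) library, with circles, squares and triangles for mice 1, 2 and 3. The 10 genes left of the line were higher in Axin2+ and the 14 right of it lower, and for none of them did the fractions overlap.

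The A-type channel gene Kcnd3, which gives a fast inactivating current, was among the highest members per kilobase in both fractions, at 5.06 CPM per kilobase in Axin2+ and 3.98 in Axin2-. It had 46.7, 51.7 and 47.0 CPM in Axin2+ against 34.2, 38.5 and 41.8 CPM in Axin2- libraries. The fractions did not overlap, but the difference was small and did not pass (log2 0.34 ± 0.13 SE, edgeR adjusted p = 0.0826). Kcnd2 of the same family had 1.91, 5.80 and 6.87 CPM in Axin2+ and 10.3, 26.2 and 4.28 CPM in Axin2- libraries, with overlap (edgeR adjusted p = 0.166). Kcnh5 missed the threshold narrowly at log2 -2.46 ± 0.76 (SE, edgeR adjusted p = 0.0505), and passed with mouse as a block (0.0204), in DESeq2 (0.00478) and under each of the other filters. Of the 6 edgeR fits without single libraries, Kcnh5 passed in 1, with adjusted p-values up to 0.157. Kcnb2, a delayed rectifier gene, had a positive fold change (log2 0.85 ± 0.31 SE, edgeR adjusted p = 0.0775), which passed with mouse as a block (0.0386) and in DESeq2 (0.0369). Kcnb2 passed in 0 of the 6 edgeR fits without single libraries, with adjusted p-values up to 0.216.

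The auxiliary subunits of voltage-gated channels held the largest rise of all members. Kcne3, the partner that keeps Kcnq1 open in epithelia (ENSMUSG00000035165, chromosome 7, 100176502 to 100184869, plus strand), had 4.54, 4.08 and 6.09 CPM in Axin2+ against 0.214, 0.175 and 0.309 CPM in Axin2- libraries. The fractions were far apart in every mouse, and the log2 fold change was 4.39 ± 0.43 (SE, edgeR adjusted p = 0.00071). Kcne4, known to inhibit Kcnq1 and to modify vascular channels, went the other way, with 1.38, 3.59 and 2.74 CPM in Axin2+ against 14.3, 8.56 and 12 CPM in Axin2- libraries (log2 -2.18 ± 0.40 SE, edgeR adjusted p = 0.00808). The Kcnip genes encode calcium-binding partners of the Kcnd channels, and 3 of 4 were tested. Of these 0 passed in edgeR, 2 had an unadjusted p under 0.05, and 2 passed in DESeq2. Kcnip3, which per kilobase was the highest auxiliary subunit in Axin2-, had 4.26, 8.63 and 13.6 CPM in Axin2+ and 19.1, 27.9 and 18.1 CPM in Axin2- libraries (log2 -1.3 ± 0.41 SE, edgeR adjusted p = 0.0549). It passed without the Axin2+ library of mouse 3 (0.0188) and in DESeq2 (0.00723). The Kcnab genes encode cytoplasmic beta subunits of the Kcna channels. Kcnab1 had 13.1, 8.68 and 12.5 CPM in Axin2+ and 7.70, 19.7 and 14.0 CPM in Axin2- libraries, with overlap (edgeR adjusted p = 0.596). Kcnab2 ranged widely within Axin2+, at 29.1, 15.6 and 3.96 CPM, against 6.49, 3.50 and 8.79 CPM in Axin2- libraries (edgeR adjusted p = 0.174).

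Among the inward rectifiers, which pass potassium more easily into the cell and stabilize the resting potential, Kcnj2 was higher in Axin2+. This classical strong rectifier (ENSMUSG00000041695, chromosome 11, 111066164 to 111076821, plus strand) had 6.61, 5.70 and 3.78 CPM in Axin2+ against 0.933, 0.874 and 1.01 CPM in Axin2- libraries. The Axin2- libraries were nearly equal, and the log2 fold change was 2.51 ± 0.35 (SE, edgeR adjusted p = 0.0028). Kcnj10, known for potassium buffering in glia and for basolateral recycling in kidney (ENSMUSG00000044708, chromosome 1, 172341210 to 172374085, plus strand), had 7.88, 2.85 and 1.73 CPM in Axin2+ against 0.214, 0.384 and 0.227 CPM in Axin2- libraries. The fractions did not overlap, though the Axin2+ library of mouse 1 was well above the others. Its log2 fold change was 3.90 ± 0.70 (SE, edgeR adjusted p = 0.0072), and 3.05 without that library. Kcnj14 was lower, with 0.293, 0.208 and 0.316 CPM in Axin2+ against 1.52, 1.40 and 2.47 CPM in Axin2- libraries (log2 -2.71 ± 0.52 SE, edgeR adjusted p = 0.00968). It made up 49.6% of the class per kilobase in Axin2-, while Kcnj2 made up 41.4% in Axin2+. The other 4 tested inward rectifiers were at low levels and overlapped between fractions. Kcnj3, a G protein-gated channel, had 0.155, 0.453 and 1.69 CPM in Axin2+ and 0.272, 0.157 and 0.865 CPM in Axin2- libraries (edgeR adjusted p = 0.587). Kcnj11, the pore of ATP-sensitive channels, had 0.50, 0.510 and 0.205 CPM in Axin2+ and 0.35, 0.262 and 0.185 CPM in Axin2- libraries (edgeR adjusted p = 0.561).

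Two-pore channels carry background leak currents. Kcnk1, a weakly conducting member found in many epithelia (ENSMUSG00000033998, chromosome 8, 125995170 to 126030685, plus strand), had the highest level of all members in Axin2+. It stood at 106, 101 and 91.0 CPM in Axin2+ libraries, against 5.95, 13.6 and 11.3 CPM in Axin2- libraries. The 3 Axin2+ libraries were close together, and the log2 fold change was 3.27 ± 0.30 (SE, edgeR adjusted p = 0.000632). Kcnk1 was 84.5% of the two-pore sum per kilobase in Axin2+ and 36.1% in Axin2-, and 8.01% of its exon bases are shared with an antisense transcript. Kcnk13, a halothane-inhibited channel known from microglia (chromosome 12, 99964499 to 100062682, plus strand), had 14.3, 5.78 and 3.93 CPM in Axin2+ against 1.26, 0.280 and 1.38 CPM in Axin2- libraries. It was highest in the Axin2+ library of mouse 1, and its log2 fold change was 3.04 ± 0.73 (SE, edgeR adjusted p = 0.0225). The call was lost without the Axin2- library of mouse 1 (0.0571) or of mouse 3 (0.0572), and the fold change was 2.32 without the Axin2+ library of mouse 1.

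Both lower two-pore genes encode channels that respond to the cell's surroundings. Kcnk2, the stretch-activated TREK-1 channel described in uterine muscle, had 0.656, 1.3 and 1.28 CPM in Axin2+ against 6.12, 4.21 and 5.31 CPM in Axin2- libraries (log2 -2.27 ± 0.39 SE, edgeR adjusted p = 0.00645). An antisense transcript shares 12.2% of its exon bases. Kcnk3, the acid-sensitive TASK-1 channel, had 0.259, 0.378 and 0.540 CPM in Axin2+ against 4.26, 0.909 and 7.83 CPM in Axin2- libraries. Its Axin2- libraries were far apart, with mouse 2 lowest, and the log2 fold change of -3.46 ± 0.80 (SE, edgeR adjusted p = 0.0189) did not pass without the Axin2- library of mouse 3 (log2 -2.70, adjusted p = 0.063) or the Axin2+ library of mouse 2 (0.0701). Kcnk6 and Kcnk5, leak channels of epithelia, did not pass. Kcnk6 had 21.4, 7.82 and 4.76 CPM in Axin2+ and 10.2, 4.6 and 6.69 CPM in Axin2- libraries (edgeR adjusted p = 0.431). Kcnk5 had 11, 4.12 and 4.86 CPM in Axin2+ and 13.7, 10.6 and 8.09 CPM in Axin2- libraries (edgeR adjusted p = 0.254). For both, the fractions overlapped.

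In the calcium-activated class, the BK pore gene and the genes of its partners did not move alike. Kcnma1, the pore of the large-conductance BK channel that relaxes smooth muscle (ENSMUSG00000063142, chromosome 14, 23289431 to 24014491, minus strand), had 7.94, 13.9 and 13.2 CPM in Axin2+ against 37.2, 23.6 and 27.6 CPM in Axin2- libraries. The fractions did not overlap, and the log2 fold change was -1.33 ± 0.27 (SE, edgeR adjusted p = 0.0116). Kcnmb1, the beta subunit that raises the calcium sensitivity of BK in smooth muscle (ENSMUSG00000020155, chromosome 11, 33963013 to 33973641, plus strand), fell further. It stood at 0.276, 0.302 and 0.596 CPM in Axin2+, against 24.4, 8.37 and 18.7 CPM in Axin2- libraries (log2 -5.45 ± 0.54 SE, edgeR adjusted p = 0.000764). Lrrc26, the gamma subunit that opens BK without a calcium rise in secretory epithelia and is no member by name, moved in the opposite direction. It had 8.16, 10.4 and 5.81 CPM in Axin2+ against 0.35, 1.15 and 0.371 CPM in Axin2- libraries (log2 3.69 ± 0.57 SE, edgeR adjusted p = 0.00393), and the log2 fold change of Lrrc26 was 4.49 without the Axin2- library of mouse 2. The pore gene was thus measured in both fractions, with the gamma subunit transcript mainly in the Axin2+ and the beta subunit transcript mainly in the Axin2- libraries. The other beta subunit genes tested, Kcnmb2 and Kcnmb4, averaged under 1 CPM in both fractions and did not pass. The smooth muscle markers, 10 of 10 lower in Axin2+, moved with Kcnmb1: their sums and the Kcnmb1 levels had the same order in the Axin2- libraries, mouse 1 highest and mouse 2 lowest. The stromal fibroblast marker sums had that order too.

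**Figure D4:**
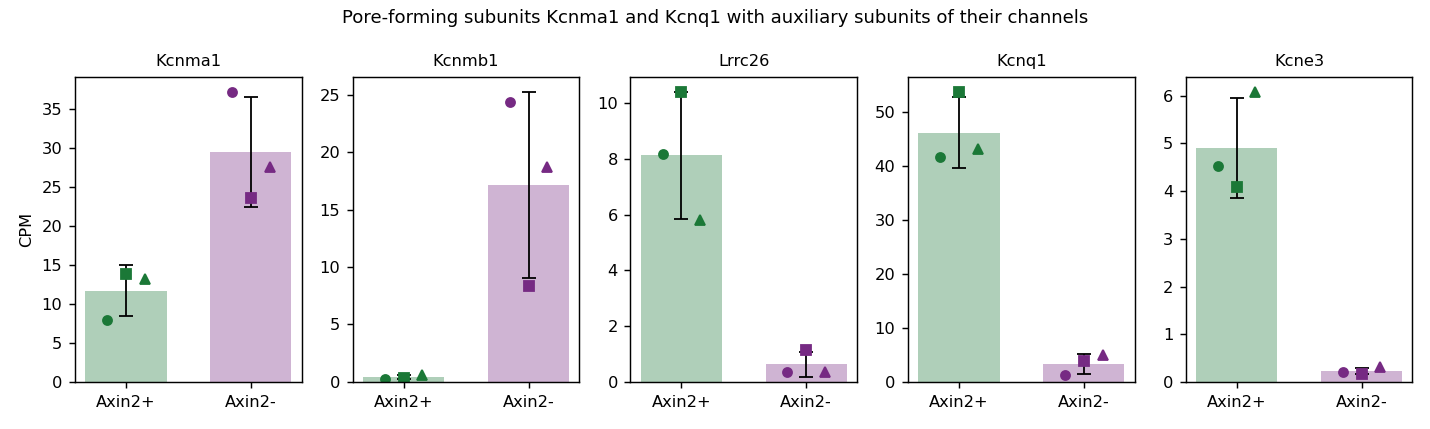
Levels in CPM (y axis, a separate linear scale from 0 in each panel) of Kcnma1 with its subunits Kcnmb1 and Lrrc26, and of Kcnq1 with Kcne3, in Axin2+ and Axin2- libraries. Bars are means with the SD over 3 libraries, and circles, squares and triangles are mice 1, 2 and 3; Kcnmb1 is under 1 CPM in each Axin2+ library and Lrrc26 at most 1.15 CPM in each Axin2- library.

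The small-conductance channel gene Kcnn3, whose product damps uterine contraction in mice, was lower in Axin2+ at 11.6, 20.1 and 11 CPM, against 92.7, 45.1 and 39.7 CPM in Axin2- libraries. No library crossed over (log2 -2.06 ± 0.39 SE, edgeR adjusted p = 0.00956). It was the highest of its class per kilobase in both fractions, at 1.36 CPM per kilobase in Axin2+ and 5.66 in Axin2-. Kcnn1, also of small conductance, had 1.76, 3.04 and 4.47 CPM in Axin2+ against 13.0, 9.73 and 5.13 CPM in Axin2- libraries (log2 -1.59 ± 0.46 SE, edgeR adjusted p = 0.0409). Kcnn4, the intermediate-conductance channel of epithelia and blood cells, was the only gene of the class to rise, at 8.59, 6.87 and 4.24 CPM in Axin2+ against 1.94, 1.57 and 3.19 CPM in Axin2- libraries (log2 1.55 ± 0.41 SE, edgeR adjusted p = 0.0288). Neither call was firm. With mouse as a block the adjusted p was 0.109 for Kcnn1 and 0.0687 for Kcnn4, and with scaling by library size alone it was 0.0601 for Kcnn1. Without the Axin2- library of mouse 1 or 2, or the Axin2+ library of mouse 1 or 2, it was 0.0799 to 0.133 for Kcnn1 and 0.0705 to 0.0884 for Kcnn4. The sodium-activated channel gene Kcnt2 had 5.54, 7.12 and 10.6 CPM in Axin2+ and 12, 14.1 and 22.9 CPM in Axin2- libraries, without overlap (log2 -1.08 ± 0.34 SE, edgeR adjusted p = 0.0511). It passed with mouse as a block (0.0159), in DESeq2 (0.00998) and without the Axin2+ library of mouse 3 (0.0316). Kcnn2 had 0.638, 0.812 and 1.43 CPM in Axin2+ and 1.85, 1.05 and 1.13 CPM in Axin2- libraries, with overlap (edgeR adjusted p = 0.532).

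The libraries of a fraction were not alike, and cell type markers moved with some members. Of the 16 lower genes, 12 (75%) had their lowest Axin2- level in mouse 2, against 44.5% of all 2171 lower genes; the smooth muscle, stromal fibroblast, pericyte, macrophage, mesothelial, and T and NK cell marker sums were lowest in that library too. Of the 10 higher genes, 5 had their highest Axin2+ level in mouse 1, against 43.8% of all 2447 higher genes. Kcnk13, Kcnj10, Kcnj2 and Kcnn4 were highest in the Axin2+ library of mouse 1 and lowest in that of mouse 3, as were the macrophage, epithelial, and T and NK cell marker sums. Kcnk1 had its highest and lowest Axin2+ level in the same libraries, over a narrower range, at 99.4 ± 7.69 CPM (SD, n = 3). The part of RNA from any of these cell types in these levels was not tested.

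**Figure D5:**
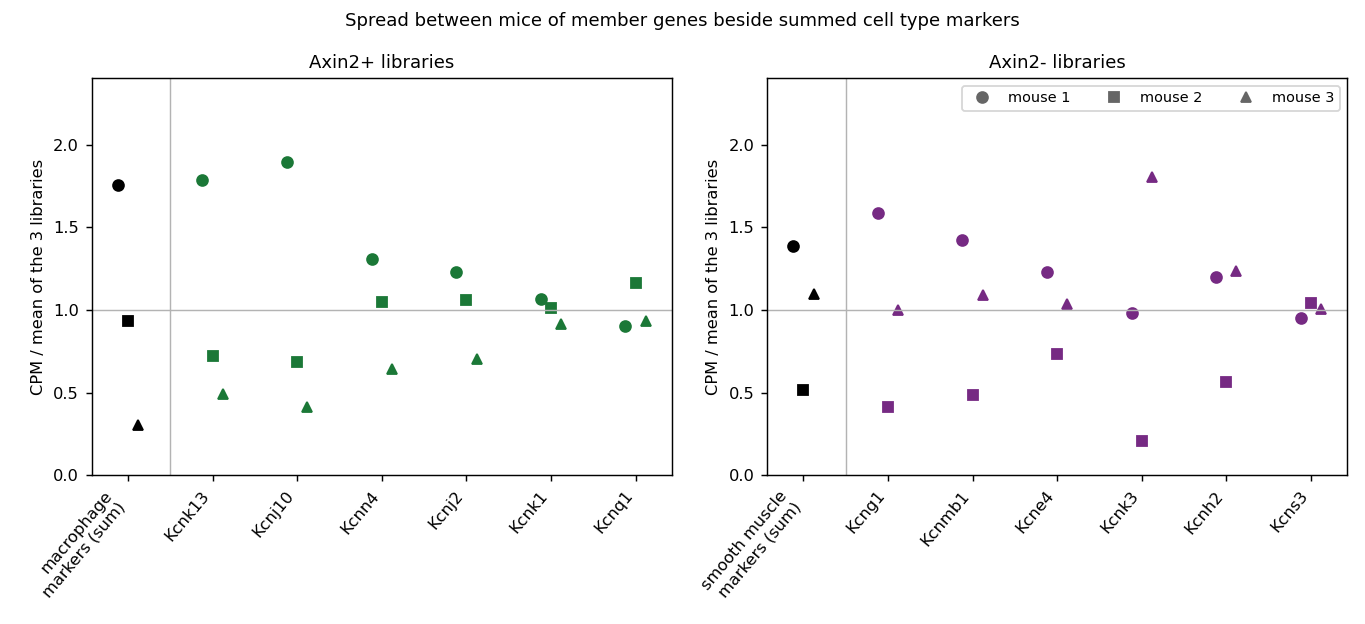
CPM of each library divided by the mean of the 3 libraries of its fraction (y axis), for summed macrophage markers and 6 genes higher in Axin2+ (left) and for summed smooth muscle markers and 6 genes lower in Axin2+ (right). Circles, squares and triangles are mice 1, 2 and 3. Macrophage markers, Kcnk13 and Kcnj10 are highest in the Axin2+ library of mouse 1, and smooth muscle markers, Kcng1, Kcnmb1 and Kcnk3 lowest in the Axin2- library of mouse 2. Other genes depart from the markers: Kcnq1 and Kcns3 are highest in mouse 2 of the fraction drawn. Higher genes not drawn are Kcna2, Kcnc2 and Kcne3, highest in the Axin2+ library of mouse 3, and Kcng3, highest in that of mouse 2. Lower genes not drawn include Kcnn3, Kcnn1 and Kcng4, lowest in the Axin2- library of mouse 3. They also include Kcna5, Kcnq5, Kcnj14, Kcnk2 and Kcnma1, lowest in that of mouse 2.

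The 30 members that were not tested had at most 104 reads over all 6 libraries, a total reached by Kcnv2 with 0, 0 and 6 reads in Axin2+ and 75, 7 and 16 reads in Axin2- libraries. Kcna10, Kcnv1, Kcnj5, Kcnj6, Kcnj16 and Kcnk9 had no read in any library, and 3 reads, the limit a count of 0 allows, correspond to between 0.0518 and 0.0618 CPM. Some genes had reads in 1 fraction only. Kcnh6 had 32, 4 and 0 reads in Axin2+ and 0 in each Axin2- library. Its mean CPM in Axin2+ was 3.64-fold a floor of 3 counts per Axin2- library. Kcnk16 had 15, 0 and 9 reads in Axin2+ and 0 in Axin2- (2.47-fold that floor). Kcnj12 had 0 reads in Axin2+ and 0, 16 and 10 in Axin2-, a mean CPM 2.96-fold the same floor in Axin2+. Kcns2 had 0 in Axin2+ and 4, 17 and 2 in Axin2- (2.53-fold the floor). Kcnk10 had 0 in Axin2+ and 12, 6 and 0 in Axin2- (2.06-fold the floor). Kcnh6, Kcnk16, Kcnj12 and Kcnk10 each had a library at 0 in the fraction with reads. Kcnj9 had 15, 2 and 0 reads in Axin2+ and 3, 0 and 0 in Axin2- libraries, a ratio of 5.41 with an exact 95% counting interval of 1.56 to 28.8. The folds against the floor use the observed mean CPM, so they cover no error on the side with reads and are not lower bounds. The interval covers counting error alone, because the reads carry no molecular identifiers and need not come from separate molecules.

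Other genes of potassium handling were read from lists chosen by function. The counts that follow stand beside 14.5% higher and 12.8% lower in Axin2+ among all genes tested. Of 10 auxiliary proteins outside the Kcn names, 7 were tested, 1 was higher and 4 were lower in Axin2+. The higher one was Lrrc26, described with Kcnma1. Abcc9, the sulfonylurea receptor of vascular ATP-sensitive channels, had 1.33, 4.32 and 2.46 CPM in Axin2+ against 67.9, 20.3 and 118 CPM in Axin2- libraries (log2 -4.67 ± 0.74 SE, edgeR adjusted p = 0.0047), and the log2 fold change was -4.02 without the Axin2- library of mouse 3. Dpp6, a partner of the Kcnd channels, had 0.483, 0.963 and 2.57 CPM in Axin2+ against 20.4, 4.70 and 12.1 CPM in Axin2- libraries (log2 -3.21 ± 0.76 SE, edgeR adjusted p = 0.0209). Its adjusted p reached 0.0785 when single libraries were left out, and the call was lost without the Axin2- library of mouse 1 or 3 or the Axin2+ library of mouse 2. The log2 fold change of Dpp6 was -2.62 without the Axin2- library of mouse 1 and -4.09 without the Axin2+ library of mouse 3. The other lower genes were Lrrc55, a gamma subunit gene of BK, and Amigo1, a partner of voltage-gated channels. As for 12 of the 16 lower members, Abcc9 and Dpp6 had their lowest Axin2- level in mouse 2.

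Of 24 potassium pump and cotransporter genes, 20 were tested, and 6 were higher and 5 lower in Axin2+. Among all genes tested, 14.5% were higher and 12.8% lower. Fxyd4, a regulator of the sodium pump, had 47.6, 46.1 and 42.7 CPM in Axin2+ against 3.48, 5.80 and 3.19 CPM in Axin2- libraries (log2 3.45 ± 0.26 SE, edgeR adjusted p = 0.000332). Slc12a2, the cotransporter that loads epithelial cells with chloride and potassium, had 135, 175 and 139 CPM in Axin2+ against 57.0, 57.3 and 55.7 CPM in Axin2- libraries (log2 1.40 ± 0.13 SE, edgeR adjusted p = 0.000611). In the other direction, the sodium pump subunit gene Atp1b2 had 14.1, 23.1 and 25.2 CPM in Axin2+ against 74.7, 70.5 and 93.9 CPM in Axin2- libraries (log2 -1.94 ± 0.24 SE, edgeR adjusted p = 0.0017). The potassium-chloride cotransporter gene Slc12a4 had 44.9, 33.5 and 40.3 CPM in Axin2+ against 88.9, 66.6 and 79.8 CPM in Axin2- libraries (log2 -0.99 ± 0.16 SE, edgeR adjusted p = 0.0051). For these 4 genes the fractions did not overlap. The other lower genes of the list were Fxyd1, Fxyd6 and Atp1a4. Of 10 hyperpolarization-activated and cyclic nucleotide-gated channel genes, 4 were tested and 0 passed in edgeR, with 0 at an unadjusted p under 0.05 and 0 in DESeq2.

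The authors' deposited table of their own comparison holds 53 of the members, 10 of them higher and 18 lower in Axin2+ at an FDR of at most 0.05. The shares of all genes that pass in that table were not computed, so these counts have no background beside them. All 53 fold changes in the authors' deposited table had the same sign as those given here. Both comparisons use the same libraries, so the shared signs are no independent evidence. Kcnt2 is among the genes that pass there, with an FDR of 0.0483 in the authors' deposited table.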

How the data were processed

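Ribosomal RNA-depleted total RNA of 6 sorted libraries, 3 per fraction, was sequenced. The authors deposited whole-number counts of reads per gene, and the tools per the submitters' processing notes were Subread, featureCounts 1.5.3, STAR 2.5.3a, edgeR 3.22.5, StringTie 1.3.3 and bcl2fastq 2.20.0.422, with the build mm10. Which annotation version and strand setting served is not given in the sources used here. The authors' deposited comparison table holds, per the file headers, a log2 fold change, a p-value and an FDR for each gene.

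These counts were tested with edgeR 4.0.16 (R 4.3.3): filterByExpr, TMM scaling, and the robust quasi-likelihood F test of Axin2+ over Axin2- libraries, adjusted by Benjamini-Hochberg over all 16896 genes tested, with a threshold of 0.05. The SE is the log2 fold change over the square root of F. The fit was tested on simulated counts. It recovered 0% of simulated 1.5-fold changes, 16.7% of 2-fold, 63.0% of 4-fold and 85.4% of 8-fold ones. Of 85 calls 7 were false. The simulation held 46 to 50 changed genes for each fold among 16547 fitted, while 27.3% of all genes passed in the real data. The Benjamini-Hochberg adjustment is stricter where few genes change, so these rates need not hold for the real data. A gene that did not pass can still differ by a small fold. Alternatives were other scalings and filters, DESeq2 1.42.0, mouse as a block, and leaving out each library. Coordinates, exon lengths and shared exon bases come from GENCODE M21 (GRCm38, the assembly that mm10 names), with a partner on either strand counted as shared.

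Members, lists and tests were chosen with earlier results of these data known. Members that passed are named, apart from a few that enter the counts but are not reported here, as are, per class, the 2 with the highest mean CPM that did not. Members with 0 to 3 reads in a fraction are given as counts where they are named, and related lists by the 2 smallest p in each direction. Kcnab2, Kcnb2, Kcnh5, Kcnmb2, Kcnmb4, Kcnv2, Lrrc55, Amigo1, Fxyd1, Fxyd6 and Atp1a4 were named after their values were seen.

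The labels give both libraries of a number to 1 mouse, which is where the pairing comes from. Over genes, the deviations of paired libraries from their fraction's mean correlated at 0.27, 0.01 and -0.07 for mice 1, 2 and 3, and libraries of different mice reached 0.25. All pairs of libraries differed beyond sampling noise (within a fraction, chi-square over degrees of freedom of at least 59.7). Marker lists also read were pericyte (3 of 5 tested lower in Axin2+), endothelial (6 of 10 higher), T and NK cell (6 of 9 lower), mesothelial (3 higher and 1 lower of 6), neuron and Schwann cell (1 of 4 lower) and ciliated cell (2 of 4 higher). Among all genes tested, 14.5% were higher and 12.8% lower.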

Additional observations from a re-analysis of the deposited data

How the results depend on the processing

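The count of higher members lay between 8 and 11 when single libraries were left out, and that of lower members between 9 and 19, with 9 without the Axin2+ library of mouse 2. Over the other alternatives the counts were 10 to 12 higher and 14 to 21 lower, the most with DESeq2 (11 higher and 21 lower). The shares of all genes called in each alternative were not computed, so these counts have no background beside them. Whether the members or all genes gained or lost calls was not tested. With mouse as a replicate block, 10 were higher and 15 lower: Kcng4, Kcnn1 and Kcnn4 were among those that no longer passed, and Kcnh5, Kcnt2 and Kcnb2 now did. The calcium-activated class then had 0 higher genes in place of 1. By class, lower two-pore genes numbered 1 with a filter of 1 CPM, and lower auxiliary genes 3 with DESeq2. Scaling by library size alone raised the median log2 fold change of all genes by 0.17, and that of the members to -0.65. Directions turned only for 3 genes that had not passed. Over fits without single libraries, Kcnab1 ranged from -0.54 to 0.074 (positive without the Axin2- library of mouse 2), Kcnj3 from -0.50 to 1.84 (negative without the Axin2+ library of mouse 3) and Kcnk6 from -0.19 to 1.04 (negative without the Axin2+ library of mouse 1). The cause was not tested. Where 1 library was left out, its fraction had 2. Low counts limit the 30 members that were not tested.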
